A study of Homo sapiens with 18 samples.

Results

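Early gene bodies, the stretch from 1 to 5 kb inside the transcribed end of a gene, were described by the peaks of RNA polymerase II (Pol II) and of its phosphorylated forms that fell there. The genes were protein-coding RefSeq genes of 20 to 200 kb chosen by their Pol II peak positions: a summit within 1 kb of exactly one end in both numbered Control libraries and none at the other end. The values that chose them are thus the Pol II Control summits at gene ends. This held for 5909 of the 9595 protein-coding genes of that length (61.6%). The end with the Pol II summit is called the marked end. Over 16 immunoprecipitated libraries, 6300 of 594257 peaks had their summit 1 to 5 kb inside it, against 9365 at 5 to 10 kb and 18026 at 10 to 20 kb.

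The cells were HCT116, a human colon cancer cell line, with INTS11 fused to an auxin-inducible degron (INTS11-AID) in every library, so the Control carries the tag as well. IAA is auxin, which directs the tagged protein to degradation. Chromatin immunoprecipitation was followed by sequencing (ChIP-seq) with antibodies to Pol II, to the tyrosine 1 phosphorylated C-terminal domain (Tyr1P) and to the serine 2 phosphorylated domain (Ser2P). Each antibody had 2 numbered IAA and 2 numbered Control libraries. A further 4 Pol II libraries, 1 each, were labelled IAA+EGF, EGF, IAA and Control and carry no replicate number, and there were 2 input libraries. The protocol text, which is the same for every sample, lists 14 h without serum, IAA at 500 µM over 1 h, EGF at 100 ng/µl over 30 min and interferon beta at 2000 U over 1 h, without saying which library received which. For the unnumbered libraries labelled IAA and EGF, the deposited peak names give another treatment than the label does, and the label is used here. Nothing says that numbered libraries came from separate cultures, so their spread may be technical. The degron acts on the protein, so no peak can serve to check the loss of INTS11.

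Pol II starts at promoters, pauses shortly downstream and is then released into the gene body. Its C-terminal domain is a tail of repeated heptapeptides, and serine 2 phosphorylation is known to build up as the polymerase moves into the gene, while tyrosine 1 phosphorylation in human cells has been described near promoters and enhancers. Integrator is a complex that attends paused Pol II, and INTS11, its endonuclease subunit, cleaves the nascent RNA and thereby ends transcription early at many genes. The early gene body is the stretch a polymerase enters once it has left the pause.

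The marked end was the annotated start in 4843 of the 4890 genes whose strand was known (99.04%), and the annotated end in 47. Strand was not known for 1019 genes. The median gene length was 51.5 kb. A summit 1 to 5 kb inside was called in at least 1 of the 16 libraries for 1389 genes (23.5%) and in all 16 for 39, while 4520 genes had none in any library. The 2 input lists held 1 such summit each.

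Promoters of 6 genes are shown because the results below turn on peaks downstream of them. CBX5, MYOF and PBLD had an early Ser2P summit only in IAA libraries, CHD2 and GTF2A1 had an early summit in every immunoprecipitated library, and SCAF8 shows how close to the 1 kb boundary a call can lie. Each sequence runs from 250 bases before to 50 bases after the start site and is taken from RefSeq on GRCh38.p14. Capitals mark the 3 motifs searched, each on both strands: GGGCGG, bound by factors such as SP1, the TATA box letters TATAAA, and CCAAT, bound by NF-Y. No 2 matches overlapped in these 6 sequences. The positions are chr12:54280073-54280372 on the minus strand for CBX5, chr10:93482285-93482584 on the minus strand for MYOF and chr10:68332879-68333178 on the minus strand for PBLD. They are chr15:92900074-92900373 on the plus strand for CHD2, chr14:81221341-81221640 on the minus strand for GTF2A1 and chr6:154733128-154733427 on the plus strand for SCAF8.
CBX5: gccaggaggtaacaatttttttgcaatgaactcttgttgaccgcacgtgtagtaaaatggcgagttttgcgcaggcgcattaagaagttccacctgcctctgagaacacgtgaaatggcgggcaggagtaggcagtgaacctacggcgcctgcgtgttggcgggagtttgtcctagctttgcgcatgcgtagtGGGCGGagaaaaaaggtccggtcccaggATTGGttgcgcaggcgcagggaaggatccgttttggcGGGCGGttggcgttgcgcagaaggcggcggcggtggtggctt
MYOF: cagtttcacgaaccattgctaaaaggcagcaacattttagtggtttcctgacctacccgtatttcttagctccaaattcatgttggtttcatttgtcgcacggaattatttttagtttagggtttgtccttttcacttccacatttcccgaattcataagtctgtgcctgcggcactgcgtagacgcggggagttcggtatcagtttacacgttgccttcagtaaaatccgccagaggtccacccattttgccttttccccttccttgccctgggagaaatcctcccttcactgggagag
PBLD: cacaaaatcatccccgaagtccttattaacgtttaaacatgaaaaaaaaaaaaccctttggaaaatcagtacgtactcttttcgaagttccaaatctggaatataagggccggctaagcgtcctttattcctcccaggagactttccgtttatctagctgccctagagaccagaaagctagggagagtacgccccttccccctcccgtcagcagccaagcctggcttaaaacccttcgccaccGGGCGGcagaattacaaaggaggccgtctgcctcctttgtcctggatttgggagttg
CHD2: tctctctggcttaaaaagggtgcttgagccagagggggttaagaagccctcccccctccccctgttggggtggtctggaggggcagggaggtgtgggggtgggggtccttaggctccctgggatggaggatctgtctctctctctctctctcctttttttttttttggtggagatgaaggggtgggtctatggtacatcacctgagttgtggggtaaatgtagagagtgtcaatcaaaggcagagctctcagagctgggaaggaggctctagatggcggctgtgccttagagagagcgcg
GTF2A1: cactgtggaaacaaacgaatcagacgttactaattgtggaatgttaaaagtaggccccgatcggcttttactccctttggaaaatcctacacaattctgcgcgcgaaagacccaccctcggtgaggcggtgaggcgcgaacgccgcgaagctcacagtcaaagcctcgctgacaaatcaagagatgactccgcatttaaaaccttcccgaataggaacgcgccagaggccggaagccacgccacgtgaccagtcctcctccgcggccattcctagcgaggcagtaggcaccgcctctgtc
SCAF8: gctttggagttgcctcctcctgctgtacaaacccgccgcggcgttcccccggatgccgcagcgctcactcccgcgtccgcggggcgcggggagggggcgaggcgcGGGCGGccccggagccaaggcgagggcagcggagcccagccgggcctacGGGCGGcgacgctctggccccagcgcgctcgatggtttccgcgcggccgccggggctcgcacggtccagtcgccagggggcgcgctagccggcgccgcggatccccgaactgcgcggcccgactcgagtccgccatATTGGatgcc
CBX5 and SCAF8 held GGGCGG 2 times and CCAAT 1 time each (read as ATTGG on the printed strand), and PBLD held GGGCGG 1 time. The other 3 windows held none of these letters, which says nothing about any factor there.

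GGGCGG was present in 58.5% of all 15812 promoters in the reference table, in 74.8% of the 4890 member genes with a promoter, in 71.1% of the 194 such genes that gained an early Ser2P summit and in 62.2% of the 37 with an early summit in all 16 libraries. TATAAA was present in 9.64% of all promoters, 3.76% of members and 5.67% of the Ser2P-gained genes. CCAAT was present in 36.3%, 35.4% and 34.0% of the same sets. The median GC content was 62.7% over all promoters, 66.3% over members and 62.7% over the Ser2P-gained genes. Members thus held GGGCGG more often and TATAAA less often than the table as a whole, as a description with no test.

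Pol II early summits were few and clustered at the near side of the window. A summit was present in 3.16% and 4.32% of genes in the IAA libraries (replicates 1 and 2), against 3.79% and 4.87% in the Control libraries. The groups overlapped. The mean over 2 libraries was 3.74% ± 0.814 (SD) in the IAA group, against a Control mean of 4.33% ± 0.766 (SD). Because the Pol II Control lists chose the marked ends, the Pol II comparison is given as a description with no test.

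Deeper in the gene the Pol II groups did not overlap. At 5 to 10 kb a summit was present in 1.963% and 2.57% of genes with IAA, against 2.69% and 3.72% in Control. At 10 to 20 kb the values were 3.35% and 4.79% with IAA, against 4.91% and 6.23% in Control. Both IAA libraries lay below both Control libraries in these 2 windows. The IAA lists were also shorter, with 17707 and 23059 peaks, against 22489 and 27169 in Control, and the values with lists of equal length follow the Ser2P results.

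Tyr1P early summits were lower in both IAA libraries than in both Control libraries. A summit was present in 5.08% and 4.72% of genes with IAA, against 6.01% and 5.69% in Control. The IAA mean was 4.90% ± 0.251 (SD, n = 2), against a Control mean of 5.85% ± 0.227 (SD, n = 2). The two-sided exact permutation test gave p = 0.333, the smallest value that 2 libraries against 2 can give. The same order held at 5 to 10 kb, with 5.65% and 4.54% against 6.35% and 6.45% in Control, and at 10 to 20 kb, with 8.87% and 7.55% against 11.03% and 11.2% in Control (exact permutation p = 0.333 each). No test of 2 against 2 libraries can pass a threshold of 0.05, and none of the 20 comparisons tested, those without Pol II, had a Benjamini-Hochberg adjusted p below 0.392.

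Ser2P stood apart from both. An early summit was present in 12.7% and 11.8% of genes with IAA, against 9.41% and 3.32% in Control. At 5 to 10 kb the shares were 36.4% and 31.8% with IAA, against 7.41% and 2.251% in Control. At 10 to 20 kb they were 51.7% and 48.2% with IAA, against 14.4% and 3.33% in Control. The IAA libraries were higher in every window, and least so in the early one.

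The Ser2P means at 1 to 5 kb were 12.3% ± 0.658 (SD, n = 2) for IAA, against 6.36% ± 4.31 (SD, n = 2) for Control, with an exact permutation p of 0.333. The mean number of summits with IAA was 2.07 times that of Control at 1 to 5 kb, 8.05 times at 5 to 10 kb and 7.93 times at 10 to 20 kb. The Control replicates differed widely from each other. The 3 factors were 4.35, 18.9 and 23.4 when Control replicate 1 was left out. Leaving out Control replicate 2 gave 1.36, 5.11 and 4.78. Whichever Control library was left out, the factor was smallest in the early window.

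These Ser2P lists differ in size, with 99001 and 88503 peaks with IAA, against 37013 and 15270 in Control. With all 4 lists cut to the 15270 strongest peaks, the share of genes with an early summit was lower with IAA than in Control, by -0.652 percentage points. The direction of the Ser2P difference in the early window is therefore that of the full lists only. Deeper in the gene the Ser2P difference stayed positive under every processing alternative tried. Its lowest values there were 0.347 percentage points at 5 to 10 kb and 0.474 at 10 to 20 kb, so nearly all of its size could be lost. With Pol II lists cut to 17707 peaks the Pol II difference turned as well, to 0.338 percentage points, while the Tyr1P difference kept its sign. At 5 to 10 and 10 to 20 kb both antibodies turned, to 0.0423 and 0.0254 percentage points for Pol II and 0.474 and 0.212 for Tyr1P, with IAA then slightly higher. A peak list cannot separate more cells carrying a mark from more signal per cell.

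**Figure D1:**
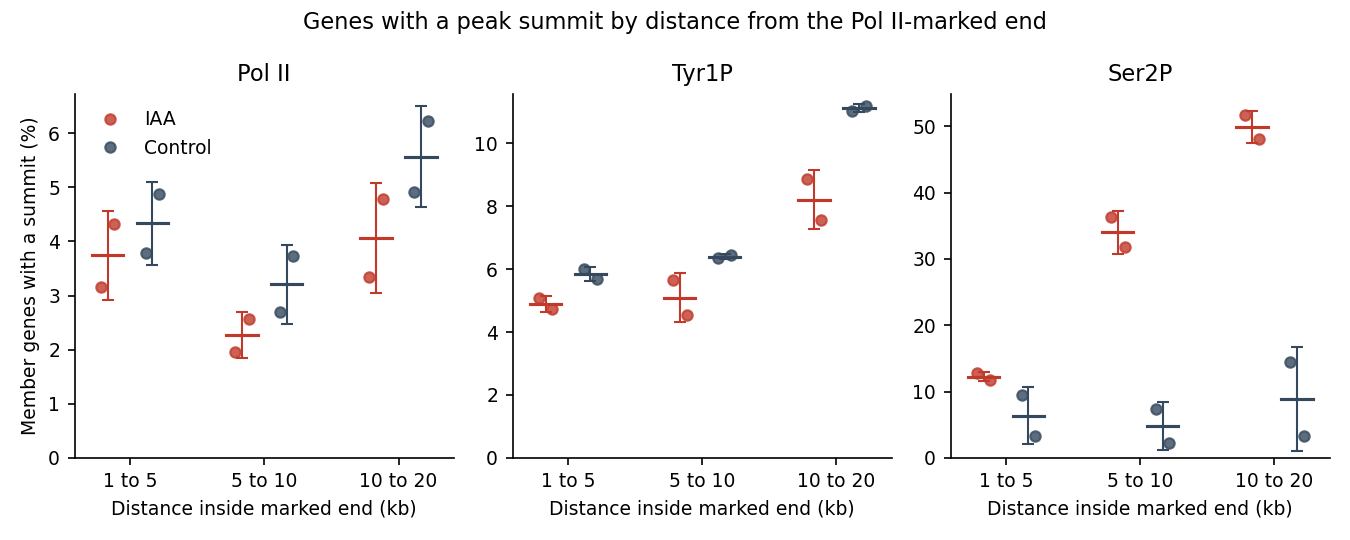
Percent of the 5909 genes with a peak summit (y axis) 1 to 5, 5 to 10 and 10 to 20 kb inside the marked end, by antibody, with 1 point per numbered library and a bar at the mean ± SD of 2. The y axis differs between antibodies. With the full lists, Ser2P with IAA reaches 12.3% on average at 1 to 5 kb and lies far above Control in the deeper windows. Pol II and Tyr1P lie slightly lower with IAA.

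The early window was then set against the deeper one within each library. Summits per kb at 1 to 5 kb were divided by summits per kb at 10 to 20 kb. For Pol II the ratio was 2.22 and 2.02 with IAA, against 1.76 and 1.79 in Control. For Tyr1P it was 1.32 and 1.40 with IAA, against 1.23 and 1.16 in Control. Over the whole window both antibodies thus had denser early than deep summits in every numbered library, and slightly more so with IAA. With lists of equal length the Tyr1P difference in the log2 ratio turned, to -0.222, and the Pol II difference kept its sign. Longer lists also went with lower ratios, with 2.22 in the shortest Pol II list (17707 peaks) and 1.27 in the longest (35424 peaks, unnumbered Control), so the ratio is not free of list length.

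For Ser2P the ratio was 0.423 and 0.431 with IAA, against 1.501 and 2.296 in Control. Over the whole window only the Ser2P IAA libraries, among the 12 numbered ones, had sparser summits early than deep. Past the near boundary this was not particular to them. Every numbered Pol II and Tyr1P library held fewer summits at 4 to 5 kb than at 10 to 11 kb. These were 26 against 32 in Pol II Control replicate 1 and 45 against 82 in Tyr1P Control replicate 1. Ser2P Control held 66 against 108 in replicate 1 and 24 against 22 in replicate 2. The IAA minus Control difference in the Ser2P ratio was -2.12 on the log2 scale (exact permutation p = 0.333). Against 5 to 10 kb the Ser2P ratios were 0.403 and 0.435 with IAA and 1.57 and 1.82 in Control, a log2 difference of -2.01 (exact permutation p = 0.333). With lists of equal length the 2 differences were -0.544 and -0.551, so the direction held and most of the size was lost. The Ser2P ratios followed list length too, with 2.296 at 15270 peaks, 1.501 at 37013 and 0.423 at 99001.

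The change of the Ser2P ratio was set against that of Tyr1P. The Ser2P difference minus the Tyr1P difference was -2.31 on the log2 scale for the 1 to 5 over 10 to 20 kb ratio. An exact permutation of treatment labels within each antibody has 36 arrangements and gave p = 0.0556, the smallest value it can give (Benjamini-Hochberg adjusted p = 0.392). On the log2 percent of genes with an early summit, the Ser2P difference minus the Tyr1P difference was 1.39 (exact permutation p = 0.0556). Neither passes 0.05, and no result of this test can. With lists of equal length the second turned to -0.580.

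Gene length did not remove the pattern. In 2843 genes of 20 to 50 kb the Ser2P ratio of 1 to 5 over 10 to 20 kb was 0.412 and 0.398 with IAA, against 1.25 and 1.72 in Control. In 1205 genes of 100 to 200 kb it was 0.499 and 0.485 with IAA, against 2.196 and 3.23 in Control. The IAA libraries lay below 1 and the Control libraries above 1 in both length classes.

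Within the window, summits crowded toward the near boundary. Per 1000 genes, the last 500 bp before the boundary, at 0.5 to 1 kb, held 72.3 and 87.8 Pol II summits with IAA and 88.3 and 97.5 in Control. The first 500 bp after it, at 1 to 1.5 kb, held 17.6 and 23.4 with IAA and 19.8 and 25.6 in Control. Of the Pol II and Tyr1P early summits, 59.9% to 67.0% lay at 1 to 2 kb in every numbered library. The share was 41.3% and 43.5% for Ser2P with IAA, against 51.5% and 61.9% in Control.

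At the far boundary the Ser2P IAA libraries showed a step. From 4 to 5 kb they held 162 and 143 summits, and from 5 to 6 kb 493 and 435, a ratio of 3.04 in each. The Control libraries held 66 and 24 from 4 to 5 kb and 76 and 27 from 5 to 6 kb, ratios of 1.15 and 1.13. The step was thus large in both Ser2P IAA libraries and slight in both Ser2P Control libraries. For Pol II the same ratios were 1.78 and 2 with IAA, against 1.27 and 1.53 in Control. For Tyr1P they were 1.83 and 1.67 with IAA, against 1.42 and 1.60 in Control. Outside the gene, the Ser2P IAA libraries held 322 and 293 summits at 4 to 5 kb and 543 and 469 at 5 to 6 kb. A rise at 5 kb was thus shared, and it was largest inside the gene for Ser2P with IAA.

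**Figure D2:**
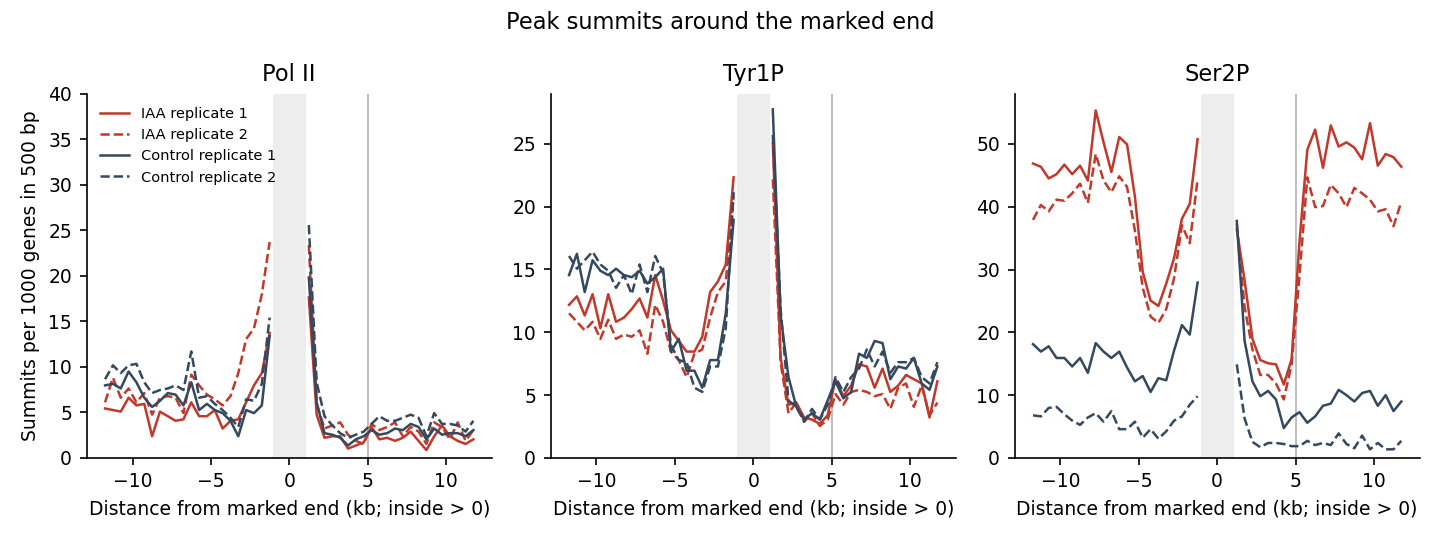
Peak summits per 1000 genes in 500 bp steps (y axis) by distance from the marked end (x axis, kb, positive inside the gene), 1 line per numbered library. The grey band covers the 1 kb on either side that chose the genes, and the line stands at 5 kb, where the Ser2P IAA libraries go to 493 and 435 summits at 5 to 6 kb after 162 and 143 at 4 to 5 kb.

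The step coincided with a change in the local background under the summits. A peak caller judges each position against the reads around it. This local background was solved from each peak's deposited fold and p. It was divided by the background value most frequent among the peaks of its library. For Ser2P with IAA the median was 5.47 and 5.53 at 1 to 5 kb, 1.89 and 2.02 at 5 to 10 kb and 1.93 and 2.00 at 10 to 20 kb. In Control it was 4.76 and 6.08, 3.86 and 5.52, and 3.71 and 5.63. The background around early Ser2P summits was thus similar with IAA and in Control, and deeper in the gene it was lower with IAA. The Tyr1P background was also lower at 5 to 10 kb than at 1 to 5 kb. It was 3.78 and 4.51 against 6.81 and 7.04 with IAA. In Control it was 3.37 and 3.40 against 7.52 and 7.30.

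The Ser2P summits at 5 to 10 kb also had smaller stacks with IAA. The median stack of Ser2P summits was 43 and 50 fragments at 1 to 5 kb and 21 and 24 at 5 to 10 kb with IAA, against 45 and 26, and 38 and 27, in Control. These stacks are not scaled for depth. By fold the summits at 5 to 10 kb were not weaker, with medians of 4.20 and 3.94 with IAA, between the Control values of 2.96 and 4.43. Of the IAA summits, 0.541% and 0.480% at 1 to 5 kb lay at or below about the most frequent background of the library. At 5 to 10 kb 18.2% and 15.5% did. Early Ser2P summits with IAA thus stood on a higher local background than deeper ones. The part of this background in the early shortage was not tested.

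**Figure D3:**
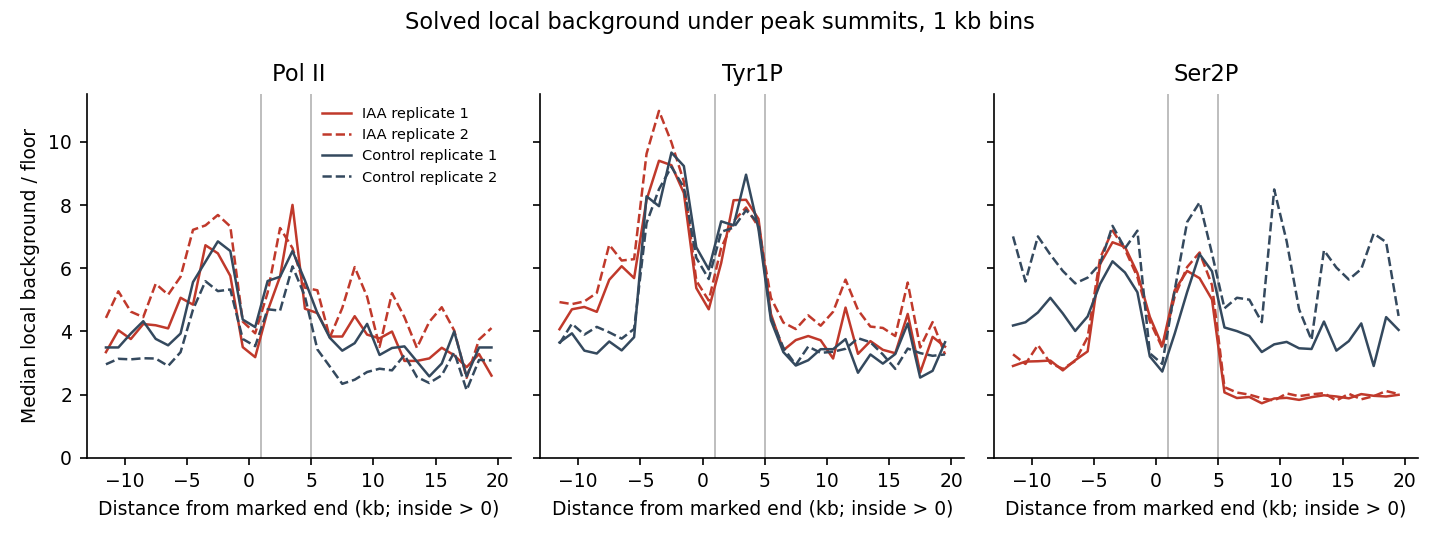
Median local background under peak summits divided by the most frequent background of the library (y axis) in 1 kb steps by distance from the marked end (x axis, kb, positive inside), 1 line per numbered library. Lines stand at 1 and 5 kb. The Ser2P IAA libraries lie at 5.47 and 5.53 over 1 to 5 kb and near 2 beyond 5 kb.

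With IAA the Ser2P ratio of early over deeper summits was lowest where the peak at the end was strongest. Genes were split into 4 groups of equal size by the Ser2P fragments stacked at their marked end. In IAA replicate 1 the ratio of 1 to 5 over 5 to 10 kb was 0.728, 0.414, 0.339 and 0.287 from the weakest to the strongest group, and in IAA replicate 2 it was 0.701, 0.420, 0.386 and 0.314. The share of genes with an early summit hardly varied, at 12.03%, 11.2%, 12.03% and 13.5% in IAA replicate 1. The share at 5 to 10 kb was 20.1%, 32.7%, 40.2% and 52.9% in the same groups, so it was the deeper window that differed between them.

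Genes without a Ser2P peak at the marked end were unlike the rest. They numbered 123 in IAA replicate 1 and 130 in IAA replicate 2, and their ratio of 1 to 5 over 5 to 10 kb was 1.39 and 1.64. In the first of these libraries 38.2% of them had an early summit. This was not particular to Ser2P with IAA. Genes without a peak of the same antibody at the end had a higher ratio than all 4 groups in every numbered library with such genes. It was 3.796 and 2.565 in Ser2P Control and 3.17 and 3.35 in Pol II with IAA. For Tyr1P it was 4.32 and 5.31 with IAA, and 5 and 10 in Control, over only 25 and 22 genes. Among genes with a peak, the 4 groups of Ser2P Control did not fall in order from weakest to strongest. They had 1.43, 1.68, 1.49 and 1.32 in replicate 1 and 1.13, 1.93, 1.06 and 1.25 in replicate 2. Split by its own stacks, Tyr1P had its lowest ratio in the strongest group of every numbered library. It was 0.577 and 0.581 there with IAA, against 1.18 and 1.40 in the weakest group. In Control it was 0.569 and 0.494, against 1.49 and 1.41. A low ratio at the strongest ends was thus not particular to Ser2P with IAA. The split uses the lists of each antibody themselves and is a description.

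The same distance outside the marked end gave a second view of the early window. Summits 1 to 5 kb inside were divided by summits 1 to 5 kb outside, a ratio chosen after its values were seen. For Pol II it was 0.620 and 0.472 with IAA, against 0.852 and 0.948 in Control. For Tyr1P it was 0.535 and 0.551 with IAA, against 0.851 and 0.834 in Control. For Ser2P it was 0.585 and 0.590 with IAA, against 0.815 and 0.745 in Control. With all 3 antibodies both IAA libraries lay below both Control libraries, so early summits were fewer relative to those just outside the gene.

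The counts on the 2 sides were as follows. Pol II had 197 and 271 summits inside and 318 and 574 outside with IAA, against 231 and 309 inside and 271 and 326 outside in Control. Tyr1P had 319 and 294 inside and 596 and 534 outside with IAA, against 377 and 356 inside and 443 and 427 outside in Control. The Pol II counts overlapped between the groups on each side, while Tyr1P counts with IAA were lower inside and higher outside. The log2 differences were -0.63 for Tyr1P and -0.41 for Ser2P (exact permutation p = 0.333 each), and -0.73 for Pol II.

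At 5 to 10 kb the same ratio did not separate the groups for Pol II or Tyr1P. It was 0.491 and 0.471 with IAA and 0.446 and 0.504 in Control for Pol II, and 0.524 and 0.509 with IAA and 0.510 and 0.512 in Control for Tyr1P. For Ser2P it was 1.02 and 0.951 with IAA, against 0.564 and 0.394 in Control, higher with IAA and so the other way round than at 1 to 5 kb. Other genes lie near many of these ends. In the 1520 genes with no other gene end from 11 kb outside to 21 kb inside, the log2 differences at 1 to 5 kb were -1.47 for Pol II, -0.78 for Tyr1P and -1.81 for Ser2P. With the window narrowed to 2 to 5 kb the Ser2P difference was -0.08, so its value came largely from the first kilobase of the window.

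**Figure D4:**
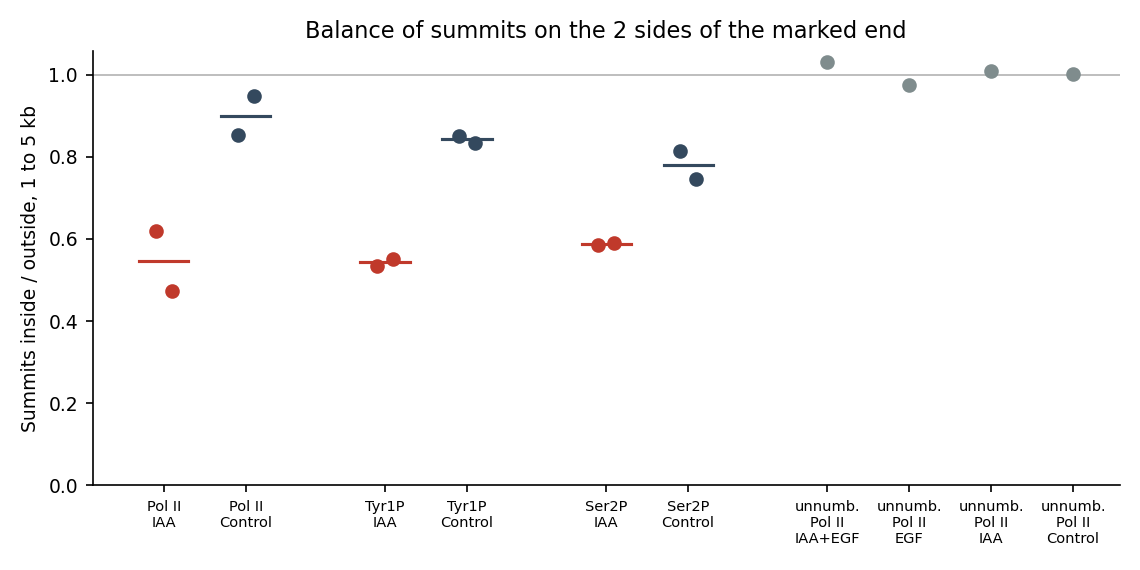
Peak summits 1 to 5 kb inside the marked end divided by those 1 to 5 kb outside it (y axis) for each library, with IAA in red, Control in dark blue, a bar at the mean of 2 numbered libraries, and the 4 unnumbered Pol II libraries in grey. The numbered IAA libraries lie between 0.472 and 0.620 and the numbered Control libraries between 0.745 and 0.948.

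In the unnumbered Pol II libraries the early share was at or above the top of the numbered range of 3.16% to 4.87%, except with EGF. Early summits were present in 4.87% of genes with IAA+EGF (exact binomial 95% interval 4.34% to 5.45%) and 4.84% with EGF (4.31% to 5.42%). The shares were 5.80% with IAA (5.22% to 6.43%) and 5.82% in Control (5.24% to 6.45%), the intervals covering counting error only. At 5 to 10 kb the shares were 4.15%, 3.605%, 5.31% and 5.40% in the same order, and at 10 to 20 kb 8.19%, 6.99%, 10.6% and 10.7%. The 2 libraries with EGF in their label were lower in each window, with 1 library a label and no test. This grouping depends on the label. By the deposited peak names the libraries labelled IAA and EGF carry each other's treatment, and the 2 lower libraries would then be the 2 with IAA.

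Their ratio of inside over outside at 1 to 5 kb was 1.03 with IAA+EGF, 0.974 with EGF, 1.008 with IAA and 1.003 in Control. All 4 lay above the numbered range of either treatment, 0.472 to 0.620 with IAA and 0.852 to 0.948 in Control. The unnumbered libraries labelled IAA and Control were alike in this ratio, whereas the numbered groups did not overlap. The ratio of 1 to 5 over 10 to 20 kb was 1.42 with IAA+EGF, 1.62 with EGF, 1.25 with IAA and 1.27 in Control. Among genes, 58 had an early summit with the IAA label only and 59 in Control only, where all gene ends gave 1.23% and 1.51%, or 0.982% and 0.998% of members. With EGF 66 had one and 124 in Control only, against 0.849% and 2.45% over all ends. With IAA+EGF 80 had one that EGF lacked and 78 the reverse (1.32% and 0.995% over all ends), and 59 had one that IAA lacked and 114 the reverse (0.99% and 1.99%). These comparisons share libraries, have 1 library a label and depend on the disputed labels IAA and EGF.

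Calls at single genes were then read from the numbered libraries. A gene was called gained where both IAA libraries and neither Control library held an early summit, and lost in the reverse case. For Pol II 34 genes were gained (0.575%) and 53 lost (0.897%), where all ends of protein-coding genes of this length gave 0.313% gained and 0.886% lost. For Tyr1P 39 were gained (0.660%) and 72 lost (1.22%), against 0.474% and 1.21% over all ends. The lost shares were close to those over all ends, while the gained shares were higher, and the members are part of that total. At the other end of the same genes 0.0508% were gained and 0.406% lost for Pol II, and 0.271% and 1.13% for Tyr1P. The Pol II rule required no summit within 1 kb of that end. An early summit was present in all 4 libraries at 92 genes for Pol II and 162 for Tyr1P. With 1 library left out the Pol II shares moved most without IAA replicate 1 (1.56% gained), IAA replicate 2 (0.965% gained, 1.46% lost) and Control replicate 1 (2.00% lost). The Tyr1P shares moved most without IAA replicate 1 (1.12% gained), IAA replicate 2 (1.24% gained) and Control replicate 2 (1.90% lost). Leaving a library out relaxes the call, so gained and lost shares can then only stay or rise.

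For Ser2P 249 genes were gained (4.21%) and 32 lost (0.542%), against 9.35% and 0.287% over all gene ends, and 117 genes had a summit in all 4 libraries. With the full lists the early gene bodies thus gained Ser2P summits less often than gene ends at large. Those 19190 ends are both ends of each gene, so mostly annotated starts are set against starts and ends together. At the other end of the same genes, 1060 were gained (17.9%). At 5 to 10 kb from the marked end 1136 were gained (19.2%, against 16% over all ends), and at 10 to 20 kb 1703 (28.8%, against 23.2%). No test was made of these shares, since both ends belong to the same libraries. The early gained share was 6.92% without Control replicate 1, 6.45% without IAA replicate 1 and 7.38% without IAA replicate 2, and the lost share 0.998% without Control replicate 1 and 3.71% without Control replicate 2. When lists were cut to equal length, 0.508% of members were gained at 1 to 5 kb, 0.575% at 5 to 10 kb and 0.728% at 10 to 20 kb. By peak overlap in place of the summit, 8.65% were gained at 1 to 5 kb.

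Many Pol II and Tyr1P calls had their summit just inside the 1 kb boundary. The mean summit of the gained genes lay at 1 to 1.5 kb in 21 of 34 for Pol II and 21 of 39 for Tyr1P, and that of the lost genes in 33 of 53 and 35 of 72. For Ser2P it lay there in 61 of 249 gained and in 21 of 32 lost genes. A peak of the other treatment overlapped the early peak at 15 gained Pol II genes (44.1%), 18 gained Tyr1P genes (46.2%) and 10 gained Ser2P genes (4.02%). It did so at 9 lost Pol II genes (17.0%) and 15 lost Tyr1P genes (20.8%), so most lost calls of these antibodies had no overlapping IAA peak. Of the 32 lost Ser2P genes, 22 (68.8%) were overlapped by an IAA peak. Gained Ser2P calls were thus mostly separate peaks, and lost ones mostly peaks overlapped by an IAA peak with its summit outside the window.

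SCAF8, an RNA-binding protein that contacts the Pol II C-terminal domain (chr6:154733378-154834244), ranked first among gained Pol II and Tyr1P genes. Its Pol II summits lay 1.024 and 1.014 kb inside with IAA, against 0.986 and 0.982 kb in Control. The Control summits thus lay 33 and 37 bp from the mean of the IAA summits, on the other side of the 1 kb boundary. FBXL20, an F-box protein, was similar, with Pol II summits at 1.044 and 1.086 kb with IAA, against 0.997 kb in both Control libraries. At TET2, an enzyme that oxidises 5-methylcytosine, they lay at 1.106 and 1.098 kb with IAA and at 0.853 and 0.811 kb in Control.

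At other genes the summits lay further apart. At RAB11A, a GTPase of recycling endosomes, the Pol II summits lay 1.5 and 1.462 kb inside with IAA, while the nearest Control summits lay at -0.194 and -0.24 kb, a negative distance meaning outside the gene. PAFAH1B1, a regulator of dynein, had summits at 1.066 and 1.096 kb with IAA, against 0.237 and 0.238 kb in Control. TAPT1, a membrane protein, lay again at the boundary, at 1.016 and 1.027 kb with IAA, against 0.811 and 0.69 kb in Control. At SCAF8, FBXL20, TET2 and TAPT1 the Control summits lay 33 to 331.5 bp from the mean IAA summit, so these 4 of the 6 calls rest on short distances.

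The named lost Pol II genes were SIRT4, TXNDC12, E2F3, CARS2, CTTNBP2NL and POLR3E. SIRT4, a mitochondrial sirtuin, had its nearest IAA summits at -0.764 and -0.587 kb, against 1.324 and 1.287 kb in Control. E2F3, a cell-cycle transcription factor, had IAA summits at 0.883 and 0.654 kb, against 1.42 and 1.43 kb in Control. CTTNBP2NL lost the deepest of these peaks, with the nearest IAA summits at -0.004 and 0.169 kb, against 4.883 and 4.902 kb in Control, while its Tyr1P lists held an early summit in all 4 libraries. At CARS2, the mitochondrial cysteinyl-tRNA synthetase, the nearest IAA summits lay at -1.658 and -1.721 kb, against 1.143 and 1.136 kb in Control. TXNDC12 and POLR3E lay closer to the boundary, with nearest IAA summits at -0.025 and 0.798 kb and at 0.14 and 0.986 kb. In IAA replicate 2 these lay 228.5 and 211.5 bp from the mean Control summit.

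Tyr1P named many of the same genes. The 6 named gained genes were SCAF8, PPP1R7, TET2, ARL6IP6, PAFAH1B1 and LMTK3, a kinase of which the early Tyr1P summits lay at 3.015 and 3.025 kb with IAA, while the Control summits lay at -0.211 and -0.189 kb. The lost ones were TXNDC12, E2F3, LUC7L2, JPH1, CARS2 and LRP8. Over all genes, 12 were gained with both antibodies, 30.8% of the Tyr1P and 35.3% of the Pol II list. Lost with both were 17, or 23.6% and 32.1% of the lists. With a summit in all 4 libraries of each antibody there were 81, or 50% and 88.0%.

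The Ser2P gained genes with the strongest peaks were LMTK3, CBX5, ZBTB43, MYOF, TRIM66 and PBLD. CBX5 encodes heterochromatin protein HP1 alpha (chr12:54230942-54280122), and its promoter is printed above. Its Ser2P summits lay 2.801 and 2.778 kb inside with IAA, while the nearest Control summits lay at -0.668 kb in replicate 1 and 10.614 kb in replicate 2. MYOF, a membrane repair protein (chr10:93306429-93482334), had IAA summits at 4.697 and 4.653 kb, and the nearest Control summits lay at 0.073 and 15.565 kb. In both genes the early IAA summit lay kilobases away from any Control summit. CBX5, LMTK3 and PBLD were called gained with all 3 antibodies.

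PBLD (chr10:68282660-68332928) had Ser2P summits at 2.3 and 2.304 kb with IAA, against 0.822 and 0.809 kb in Control, and TRIM66, a chromatin reader, at 1.977 and 1.974 kb with IAA, against 0.607 and 0.465 kb. ZBTB43, a zinc finger protein, belongs to the boundary cases, at 1.019 and 1.031 kb with IAA, against 0.982 and 0.914 kb. LMTK3 had 3 and 2 early Ser2P summits with IAA, the strongest at 3.091 and 3.095 kb, and a further listed start site lies inside the window in this gene. Such starts are rare, lying 1 to 5 kb inside the marked end in 200 of 4890 genes (4.09%), while 3982 (81.4%) had the listed start within 1 kb of that end. Of the named genes, CBX5 and MYOF thus show the longest gap to a Control summit.

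The listed start of the gene lay within 1 kb of an early summit for 40.4% and 36% of Pol II summits with IAA, against 37.6% and 36.3% in Control. For Tyr1P the shares were 30.3% and 32.4% with IAA, against 28.9% and 29.6% in Control. For Ser2P they were 13.8% and 13.3% with IAA, against 18.1% and 36.4% in Control. Early Ser2P summits with IAA were thus the least often near the gene's own listed start, over genes with a listed start.

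Most genes that gained an early Ser2P summit had no early Pol II or Tyr1P summit, as was the case for members at large. An early Pol II summit was present in at least 1 of the 4 libraries at 18.1% of the 249 genes, against 7.41% of all members, and an early Tyr1P summit at 19.3%, against 8.46%. Of the same genes, 36.5% had a Ser2P summit in both IAA libraries at 5 to 10 kb, against 24.8% of all members, and 58.6% against 40.5% at 10 to 20 kb. Their median length was 45.4 kb, against 51.5 kb over all members. The 32 lost genes had 46.9% and 75% in these windows, and the 117 with an early Ser2P summit in all 4 libraries had 32.5% and 58.1%. Deeper Ser2P summits with IAA were thus more frequent than among all members in each of these 3 classes, and not in the gained genes alone.

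Among peaks of the same replicate number, 90.8% and 84.8% of early Pol II peaks overlapped a Tyr1P peak with IAA, against 99.1% and 97.4% in Control. Of early Ser2P peaks, 20.2% and 22.4% overlapped a Tyr1P peak with IAA, against 40.5% and 76.2% in Control. In the other direction, 78.0% and 76.5% of early Tyr1P peaks overlapped a Ser2P peak with IAA, against 69.8% and 37.4% in Control. Early Pol II peaks were thus nearly a subset of Tyr1P peaks, and most early Ser2P peaks with IAA overlapped no Tyr1P peak. With IAA there were 921 and 827 early Ser2P peaks, against 318 and 294 early Tyr1P peaks, which limits this overlap. It was lower deeper in the gene, with 7.54% and 7.53% of Ser2P peaks at 5 to 10 kb.

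**Figure D5:**
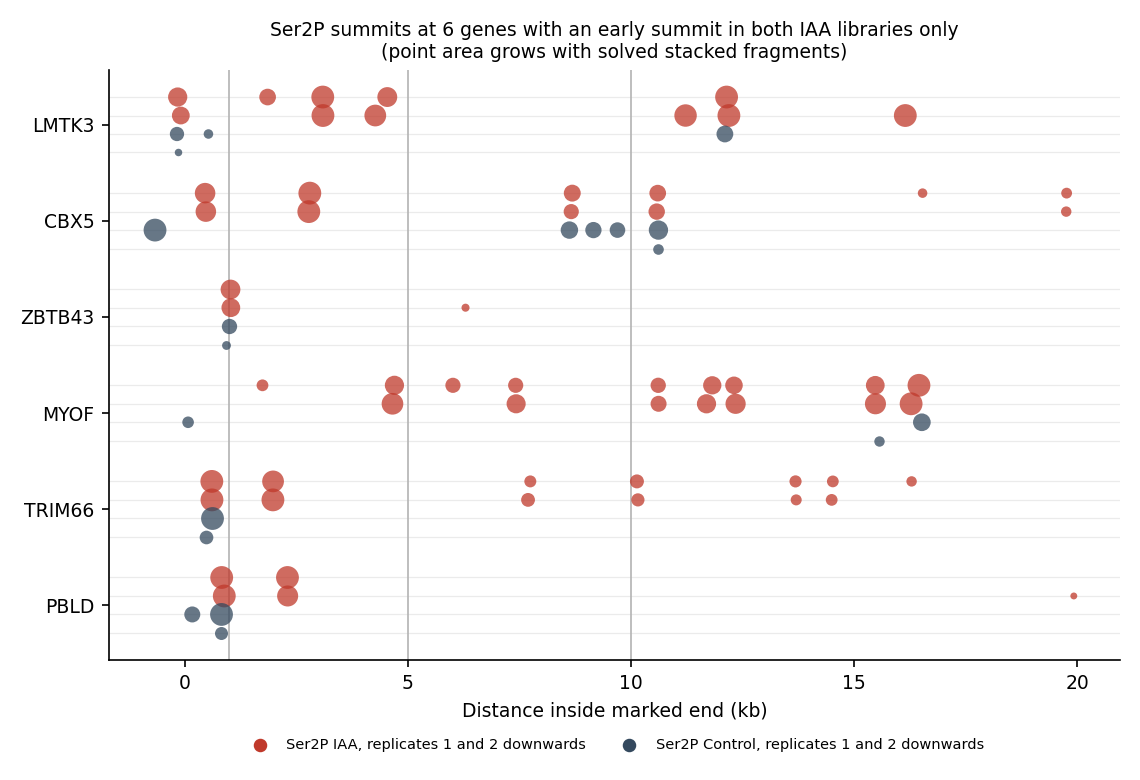
Ser2P summits along the 6 highest-ranked gained genes by distance from the marked end (x axis, kb), with 1 line of points per library, IAA above Control, point area growing with the fragments stacked at the summit, and vertical lines at 1, 5 and 10 kb. CBX5 has IAA summits at 2.801 and 2.778 kb and MYOF at 4.697 and 4.653 kb, with no Control summit inside the 1 to 5 kb window.

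The named lost Ser2P genes were LONRF1, SIRT4, FOXO3, NPM1, STMN1 and LRP8. At FOXO3, a forkhead transcription factor, the summits lay at 0.846 and 0.868 kb with IAA, against 1.175 and 1.169 kb in Control. At NPM1, the nucleolar protein nucleophosmin, they lay at 0.787 and 0.781 kb with IAA, against 1.363 and 1.24 kb. STMN1, a regulator of microtubules, had 0.58 and 0.548 kb with IAA, against 1.33 and 1.242 kb. In these 3 genes the nearest IAA summit lay closer to the marked end and just out of the window.

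A stable set carried early peaks in every library. CHD2, a chromatin remodeller (chr15:92900324-93027996), had Ser2P summits at 4.074 and 4.059 kb with IAA, against 4.08 and 4.092 kb in Control, ranked among the strongest peaks of each list. Its Pol II summits lay at 3.806 and 3.845 kb with IAA, against 4.17 and 4.24 kb in Control, and its Tyr1P summits at 3.866 and 3.909 kb, against 4.24 and 4.179 kb. The Pol II and Tyr1P summits thus lay nearer the marked end in both IAA libraries than in both Control libraries, by more than the Ser2P summits.

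GTF2A1, which encodes the large subunit precursor of TFIIA (chr14:81175452-81221390), had Pol II summits at 1.802 and 1.838 kb with IAA, against 1.96 and 2.084 kb in Control. Its Tyr1P summits lay at 1.853 and 1.878 kb with IAA, against 1.993 and 1.985 kb. TBCCD1 lay the other way, with Pol II summits at 3.379 and 3.398 kb with IAA, against 3.309 and 3.328 kb, and BCORL1, a corepressor, likewise at 2.418 and 2.39 kb with IAA, against 2.355 and 2.335 kb. DEDD2 had 2.588 and 2.601 kb with IAA, against 2.498 and 2.485 kb. The direction of these shifts was not shared among the named genes.

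The other Ser2P genes named for a summit in all 4 libraries were PNPLA6, a lysophospholipase, at 1.516 and 1.527 kb with IAA, against 1.467 and 1.522 kb in Control, LMO4 and TMC6. The 39 genes with an early summit in all 16 libraries included RCC1, the exchange factor for Ran, SOS1, which activates Ras, SUFU, an inhibitor of Hedgehog signalling, UBA1 and HUWE1, enzymes of ubiquitin transfer, and MXI1, an antagonist of MYC. The genes with the most early summits over all libraries were ZNF516, COPZ1, LYRM1, JADE2, CPT1A and ELOVL6. LYRM1 had 28 over the 16 libraries, JADE2 27 and ELOVL6 24. In the Pol II and Tyr1P lists, JADE2 had its strongest early summit at 1.929, 1.993, 1.942 and 1.982 kb with IAA, while it lay at 2.77, 1.353, 2.808 and 2.81 kb in Control.

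Over all members 4.21% gained an early Ser2P summit and 19.2% gained one at 5 to 10 kb (16% over all ends), and functional lists are given beside these shares. They hold 10 to 24 members each, too few for a count of 0 early to differ from the share of all members. Of 32 pausing and elongation factors 19 were members, and 0 gained an early Ser2P summit while 9 gained one at 5 to 10 kb, with ELL2, an elongation factor, losing an early Tyr1P summit. Of 40 chromatin remodellers and modifiers 24 were members, with 0 gained early and 10 at 5 to 10 kb, and CHD2 and ARID1A had an early Ser2P summit in all 4 libraries. Of 18 member genes among splicing factors, 0 were gained early and 7 at 5 to 10 kb.

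Of 18 member genes of EGF and MAPK signalling, RPS6KA1, a kinase downstream of ERK, gained an early Ser2P summit and 4 gained one at 5 to 10 kb. SOS1, SPRED2 and RPS6KA1 had early Pol II and Tyr1P summits in all 4 libraries. Of 10 member genes among Integrator subunits, INTS7 gained an early Ser2P summit. CTDSP2, a phosphatase of the C-terminal domain, was gained among 11 CTD kinases and phosphatases, and CDC27, a subunit of the anaphase-promoting complex, among 18 replication and cell cycle genes. Of 13 member cleavage and termination factors 0 gained an early Ser2P summit and 4 gained one at 5 to 10 kb, and SCAF8 was the one gained for Pol II and Tyr1P.

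Markers of colon epithelium were compared with those of other cell types by Pol II summits within 1 kb of a gene end in both Control libraries. These were present at 13 of 20 colon markers, EPCAM, CDH1 and KRT8 included, at 3 of 20 blood, 7 of 20 neuron and 1 of 15 fibroblast and stroma markers. Neither Control library held one at the remaining 7 colon markers, CDH17, VIL1, KRT20, CDX1, LGR5, GPA33 and HNF4A. Few genes of the 4 marker lists met the choice of genes (2, 2, 3 and 1), and 0 gained or lost an early summit. The estimated depth ranged from 2.95 to 13.6 fragments per kb over all immunoprecipitated libraries, and was 9.32 and 10.5 for Ser2P with IAA, against 13.6 and 3.30 in Control. By this estimate Ser2P Control replicate 2 was the lowest of these Ser2P libraries and had the fewest early summits. Control replicate 1 was the highest and had fewer than either IAA library. The part of depth in these counts was not tested. Between 72.7% and 89.3% of early summits lay over 1 kb from any other gene end.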

How the data were processed

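Each library has its own list of peaks as the authors deposited it, so replicates were not pooled. MACS2 2.2.7.1, deepTools 3.5.1, Picard 2.25.7, Bowtie2 2.3.4.1 and Trim Galore 0.6.6 are named with build hg38, per the submitters' processing notes. The sources used here give neither the options nor the role of the inputs. Each deposited peak has a fold enrichment at the summit, a −log10 p, a −log10 q, a score and a summit position. These deposited values rank peaks within a list. The lowest deposited −log10 q was 1.31. The lists hold no read totals, so intervals on shares of genes cover counting over genes only. Local background was solved from the deposited fold and −log10 p. The fold was read as fragments plus 1 over background plus 1, and p from the Poisson distribution. The estimated depth is the most frequent background of a list divided by the length of its shortest peak, and is not a read total. Whole fragment numbers matched 99.9% to 100% of peaks of each list within a relative tolerance of 0.0002. The solution was tested on simulated peaks.

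Peaks on the autosomes and X sharing no base with an input peak were kept, 15270 to 99001 per library. Genes came from RefSeq on GRCh38.p14, and strand from the promoter table of the same build. A window counts a summit by position. Library values were compared by two-sided exact permutation tests, except where Pol II is part of the comparison, since its Control lists chose the genes. The genes named per antibody are the 6 gained, 6 lost and 4 present in all 4 libraries that rank highest by −log10 q within their lists, the 6 with most early summits, and list members by the same ranking. The members, lists and tests were chosen with earlier results of these data known. Python 3.11.15, numpy 2.4.6, pandas 2.3.3, scipy 1.17.1 and matplotlib 3.10.9 were used. The alternatives are named with their effect at the end.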

Additional observations from a re-analysis of the deposited data

Results flagged for a closer look

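The IAA effect on the ratio of early over deep summits, 1 to 5 over 10 to 20 kb, differed between antibodies. The Ser2P effect minus the Pol II effect was -2.38 on the log2 scale. Both numbered Ser2P IAA libraries lay below both Control libraries and both Pol II IAA libraries lay above theirs. The Pol II Control lists chose the genes, so this difference is given without a test of its own.

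The Ser2P effect minus the Tyr1P effect on the same ratio was -2.31 on the log2 scale. An exact permutation of treatment labels within each antibody gave the smallest p it can, 0.0556. The direction was the same under every alternative tried, with values of -3.10 to -0.84.

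The Ser2P effect minus the Tyr1P effect on the log2 percent of genes with an early summit was 1.39, with the same exact permutation p of 0.0556. Both Ser2P IAA libraries were above and both Tyr1P IAA libraries were below their Control libraries. With lists of equal length it turned to -0.580.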

How the results depend on the processing

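Every result was recomputed under up to 17 other choices and with each library left out. Under the other choices 879 values kept their direction and moved by less than the spread between libraries (within 1.5 times for a share of genes called), 47 moved further and 35 changed sign. With 1 library left out the numbers were 203, 38 and 11. The Ser2P ratio of early over deep summits kept its direction under every alternative, from -2.83 to -0.544 against 10 to 20 kb and from -2.55 to -0.551 against 5 to 10 kb. The log2 ratio inside over outside at 1 to 5 kb also kept its direction, from -1.47 to -0.300 for Pol II, -0.782 to -0.482 for Tyr1P and -1.81 to -0.0804 for Ser2P. For the results that follow the cause was not tested.

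With lists of equal length the IAA minus Control difference in percentage points turned for Pol II at 1 to 5 kb (0.338), 5 to 10 kb (0.0423) and 10 to 20 kb (0.0254), for Tyr1P at 5 to 10 kb (0.474) and 10 to 20 kb (0.212) and for Ser2P at 1 to 5 kb (-0.652). The Tyr1P log2 ratio turned to -0.222 against 10 to 20 kb and -0.336 against 5 to 10 kb. The IAA effect on log2 percent turned to -0.603 for Ser2P minus Pol II and -0.580 for Ser2P minus Tyr1P. The percentage point gap turned to -0.254 for Ser2P minus Pol II with IAA, and to -0.364 with IAA and -0.271 in Control for Tyr1P minus Pol II. Ser2P gained genes were 0.508% at 1 to 5 kb, 0.575% at 5 to 10 kb and 0.728% at 10 to 20 kb.

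From 2 to 5 kb, gained and lost genes were 0.220% and 0.271% for Pol II, 0.288% and 0.406% for Tyr1P and 2.71% and 0.118% for Ser2P. By peak overlap, 8.65% of genes were gained and 0.220% lost for Ser2P. Ser2P lost genes were 0.349% with no other gene end in the first 21 kb and 0.329% with none from 11 kb outside either. Pol II lost genes were 1.38% with a 2 kb edge and 0.527% where the listed start lies within 1 kb of the marked end. With the unnumbered IAA and Control libraries added, a stricter call that can only keep or lower the shares, Pol II gained genes were 0.0338% and lost genes 0.0508%.

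The near-zero inside over outside difference at 5 to 10 kb changed sign for Pol II to -0.000611 with ends marked by Tyr1P, -0.318 with listed starts, -0.00947 with annotated starts, -0.00793 at −log10 q of at least 3, -0.112 with no other gene end in the first 21 kb, -0.0167 by peak overlap and -0.0368 with close summits joined. For Tyr1P it changed to -0.00639 with a 500 bp edge, -0.0351 in genes of 40 to 200 kb, -0.104 with listed starts, -0.00414 with annotated starts, -0.00916 by peak overlap and -0.0181 with close summits joined.

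The Tyr1P minus Pol II effect on log2 percent turned to 0.00753 from 2 to 5 kb, 0.151 with a 2 kb edge and 0.0101 with no gene end on either side, and on the log2 ratio to 0.121 with a 2 kb edge. The Control gap of Ser2P over Pol II in the log2 ratio turned to -0.273 with a 2 kb edge, -0.0435 with listed starts and -0.0896 by peak overlap, and that of Ser2P over Tyr1P in percentage points to -0.316 with a 2 kb edge and -1.90 by peak overlap.

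With 1 library left out, gained genes were 0.643% to 1.56% for Pol II, 0.795% to 1.24% for Tyr1P and 4.33% to 7.38% for Ser2P. Lost genes were 1.08% to 2.00%, 1.61% to 1.90% and 0.592% to 3.71%. Such shares can only stay or rise when a library is left out. The 5 to 10 kb inside over outside difference was -0.0683 to 0.108 for Pol II and -0.00428 to 0.0355 for Tyr1P. The Tyr1P minus Pol II effect was -0.261 to 0.186 on log2 percent and -0.131 to 0.00270 on the log2 ratio. In Control, Ser2P minus Pol II was -0.241 to 0.372 in the log2 ratio and -1.02 to 5.08 percentage points, and Ser2P minus Tyr1P was -2.53 to 3.56 percentage points.

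Replicate numbers did not pair the libraries. The deviations of same-numbered libraries correlated at 0.0837 for Pol II, -0.0135 for Tyr1P and 0.0467 for Ser2P over 5909 genes. With the replicate number as a block the Ser2P difference at 1 to 5 kb was 5.90 percentage points as without it, and no exact p can go below 0.5. By estimated depth, Ser2P Control replicate 1 lay at 13.6 fragments per kb with 37013 peaks, and IAA replicate 1 at 9.32 with 99001. The part of depth in list length was not tested. The Ser2P difference at 1 to 5 kb was 2.85 percentage points without Control replicate 2, at 3.30 fragments per kb, and 8.94 without Control replicate 1. Of the choices, the window from 2 to 5 kb, the inside over outside ratio, listed starts, gene ends on both sides and summits near other gene ends were added after seeing the data.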
